A study of Mus musculus with 6 samples.

Results

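The genes described here are 34 markers of the 2 cell layers of blood vessels, followed through RNA of the newborn mouse cerebellum. The deposited table held 23793 loci, and a gene was taken when its symbol stood in the gene column, which gave 1 locus for each of the 34 symbols. They fall into 6 classes: 10 endothelial surface and secreted proteins, 4 endothelial receptor tyrosine kinases, 6 genes of the blood-brain barrier, 5 endothelial transcription factors, 5 pericyte genes and 4 smooth muscle genes. Whole cerebellum was taken at postnatal day 0 of 2 genotypes, control (Zeb2 f/+; hGFAP-cre, 3 libraries) and cKO (Zeb2 f/f; hGFAP-cre, 3 libraries). The controls thus also carry hGFAP-cre and 1 floxed Zeb2 allele. Zeb2 encodes a zinc finger repressor, and hGFAP-cre is Cre recombinase under the human GFAP promoter, which is active in neural progenitors and glia. Recombination in endothelial or mural cells was not measured here. Zeb2 stood at 11.4, 9.52 and 7.995 FPKM in control libraries and at 6.19, 3.89 and 5.81 FPKM in cKO libraries, without overlap (limma adjusted p = 0.107, exact permutation p = 0.1). Whether the libraries are different animals is not stated, and p-values reflect only how far these libraries scatter, which may be technical. Xist ranged over 0.331 to 0.515 FPKM for control and 142 to 147 FPKM for cKO libraries, and the Y-linked gene Eif2s3y over 34.4 to 37.2 and 0.0270 to 0.108 FPKM. Sex and genotype therefore cannot be told apart in any comparison below, although none of the 34 genes lies on a sex chromosome (0 of 34).

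Endothelial cells line the vessel and are held together by junctional adhesion proteins. VEGF and angiopoietin receptors on their surface control their growth and stability. In the brain they also form the blood-brain barrier, in which tight junctions seal the gaps between cells, vesicle traffic is suppressed and dedicated carriers move nutrients. Mural cells wrap the outside: pericytes on capillaries, which endothelial PDGF-B recruits through Pdgfrb, and contractile smooth muscle on arteries. Glia and neural progenitors act on this wall from outside through VEGF, Wnt7a and Wnt7b, and through their endfeet.

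Most of the vessel genes lay slightly higher in cKO, and none passed the test over the whole table. FPKM is a level scaled for transcript length and library size, and differences are log2 fold changes of FPKM + 1, cKO minus control. The test was limma with Benjamini-Hochberg adjustment over all loci and a threshold of 0.05. It covered the 31 of 34 genes with at least 1 FPKM in 3 or more libraries. By it 0 of 31 were called, against 0.573% of all 13612 tested loci (0.242% higher and 0.331% lower). A fit free of 232 small-RNA loci called 1 of the 31, Mfsd2a, against 2.47% of 13380 loci (0.957% higher). An unadjusted limma p under 0.05 was found for 7 of the 31, all of them higher in cKO (22.6%), and for 7.82% of all tested loci in that direction and 9.79% in the other. Of the 31, 27 had a log2 fold change above 0 and 4 below, with a median of 0.15, while 47% of all tested loci were above 0, with a median of -0.0095. The 34 genes were chosen with earlier results of these data known, so these shares are a description.

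**Figure D1:**
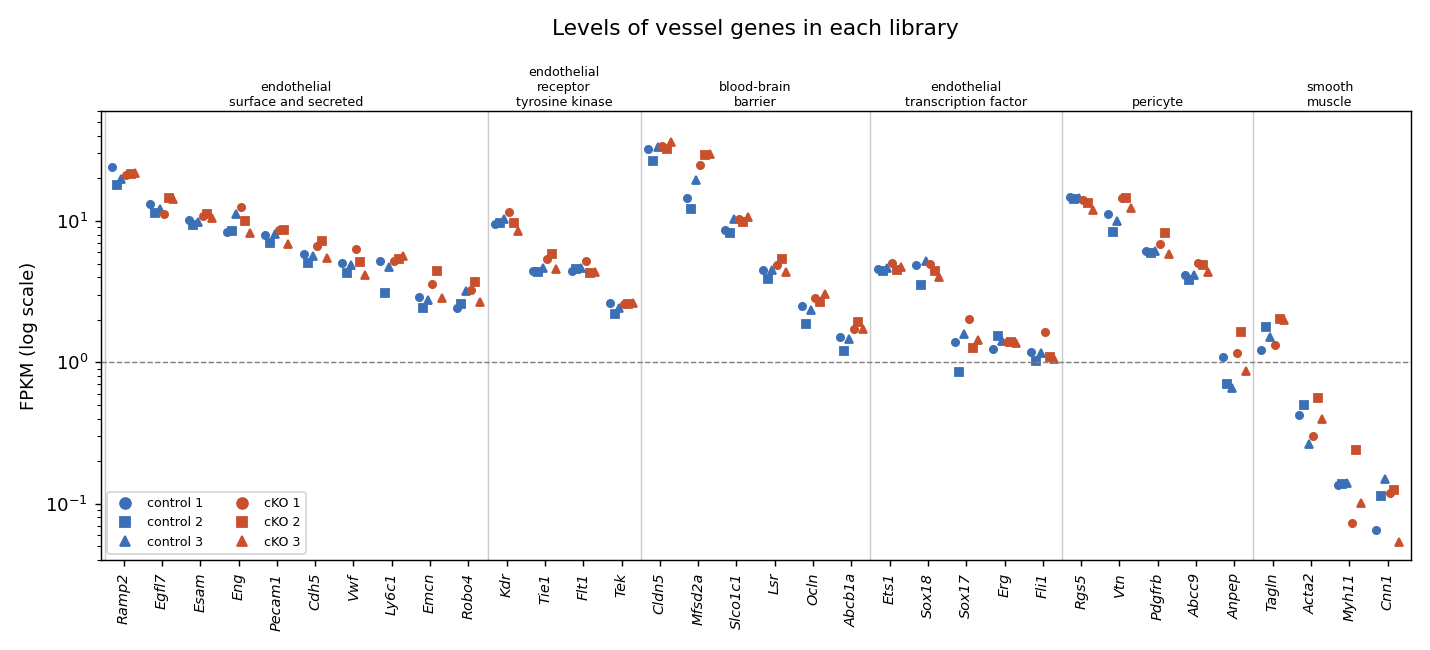
FPKM of the 34 vessel genes in each library on a log axis, grouped by class and ordered by mean level within it. Blue marks are the 3 control libraries and red marks the 3 cKO libraries, and the dashed line is 1 FPKM. Cldn5 is the highest gene and Acta2, Myh11 and Cnn1 lie under the line in all libraries.

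The labelled tissue held the transcripts of its vessels at low to moderate levels. Cldn5, the tight junction claudin of brain endothelium, had the highest mean level of the 34 (32.5 FPKM over the 6 libraries). It was followed by Mfsd2a (21.7), Ramp2 (21.1), Rgs5 (13.9), Egfl7 (12.8), Vtn (11.8) and Esam (10.3). At the other end stood the contractile genes Acta2 (0.410), Myh11 (0.137) and Cnn1 (0.104). No member was listed at 0 in any library. The cerebellum itself was marked by Fabp7 at 1524 to 1624 FPKM and Zic1 at 263 to 313 FPKM, so vessel transcripts are a minor part of these libraries. The tissue markers were not all alike between the groups. Ratios of cKO to control means were 1.002 for Fabp7, 0.933 for Zic1, 0.990 for Zic2, 0.792 for Pax6, 0.718 for Atoh1 and 0.594 for Gli1. Only Gli1 was lower without overlap (limma adjusted p = 0.0722, or 0.0243 with small-RNA loci left out). That second call held in 3 of 6 fits that also left out 1 library.

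The single libraries did not share 1 level of vessel RNA. The 34 levels summed to 223, 193 and 228 FPKM for control 1, 2 and 3 and to 251, 254 and 239 FPKM for cKO 1, 2 and 3, and the groups did not overlap. Without Mfsd2a the sums were 208, 181 and 208 FPKM against 226, 225 and 209 FPKM, and cKO 3 stood at 209.06 FPKM beside 208.45 FPKM for control 3. Control 2 was the lowest of the 6 libraries in 19 of the 31 tested genes, whereas it was the lowest in 17.95% of all tested loci. The highest library was cKO 2 in 13 and cKO 1 in 8 of the 31. Without control 2 the median log2 fold change of the 31 was 0.099, without cKO 2 it was 0.11, and without cKO 3 it was 0.22. FPKM is relative to library size, so a higher level need not be more vessel RNA. In bulk RNA more cells of a type, more RNA per cell and less RNA of other cells cannot be told apart.

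Markers of other cell types moved with some of the same libraries. Over 10 tested meningeal fibroblast genes, the median position of a library (log2 of FPKM + 1 minus the mean over 6 libraries) was 0.27, -0.61 and -0.73 in controls 1, 2 and 3 and 0.34, 0.84 and -0.34 in cKO 1, 2 and 3. Summed over the 12 genes of that list, the level was 40.2 to 62.2 FPKM in controls and 39.7 to 90.1 FPKM in cKO, with 0 genes listed at 0. The largest parts of that sum in controls 2 and 3 were Pdgfra (17.4 and 18.5 FPKM) and Islr (12.4 and 13.8 FPKM). Of the 10 tested genes, 2 were lower in cKO without overlap, Pdgfra and Islr, against 13.6% of all tested loci. Another 2, Ptgds and Foxc1, were higher without overlap, against 10.3% of all tested loci. The markers Col1a1, Col1a2, Col3a1, Dcn and Lum were higher on average in cKO (ratios 3.08, 1.55, 3.003, 4.004 and 4.29). Their groups overlapped (limma adjusted p 0.323 to 0.511). The median log2 fold change of the 10 was 0.753, with 8 above 0 and 2 below. The 25 endothelial genes gave positions of -0.016, -0.17 and -0.016 in the controls and 0.12, 0.048 and -0.0094 in cKO. Thus cKO 1 and cKO 2 were the high cKO libraries in both lists, and control 1 was high in the meningeal list but not in the endothelial one. Microglia and macrophage genes had summed levels of 65.7 to 68.7 FPKM in controls and 82.9 to 89.8 FPKM in cKO (15 genes, 0 at 0). Of the tested genes 13 of 13 were above 0, against 47% of all tested loci. In 12 of 13 every cKO library was above every control, against 10.3% of all tested loci. An unadjusted limma p under 0.05 was found for 11 of 13, all higher, against 7.82%. By adjusted p 1 was called, Csf1r (limma adjusted p = 0.0483). With small-RNA loci left out 4 were called, Csf1r, C1qa, C1qb and C1qc, against 0.957% of loci called higher. In fits that also left out 1 library, the call on Csf1r held in 2 of 6 (limma adjusted p 0.0233 to 0.0998). It was lost without control 1, control 2, cKO 1 or cKO 2. The call on C1qa held in 2 of 6, and those on C1qb and C1qc in 0 of 6. Choroid plexus genes overlapped between groups (33.2 to 42.7 against 27.4 to 51.5 FPKM, 11 genes, 0 at 0). The largest parts of their sum in each library were Otx2 (10.3 to 21.5 FPKM) and Enpp2 (12.8 to 15.3 FPKM). Erythroid genes gave 6.62 to 26.1 FPKM in controls and 12.3 to 13.8 FPKM in cKO (3 of 8 loci with a 0), and 1 of 4 tested was called, higher. That locus is 1 of 2 that carry both Hba-a1 and Hba-a2, near-identical genes whose reads the counting could split, and its 3 control values were 0, with 2.14, 1.149 and 1.56 FPKM for cKO. The other Hba-a1 locus was at 7.80, 10.6 and 2.71 FPKM in controls 1, 2 and 3 against 2.48, 5.12 and 3.72 FPKM, and was not called. The part of meninges, microglia or blood in the vessel values was not tested.

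**Figure D2:**
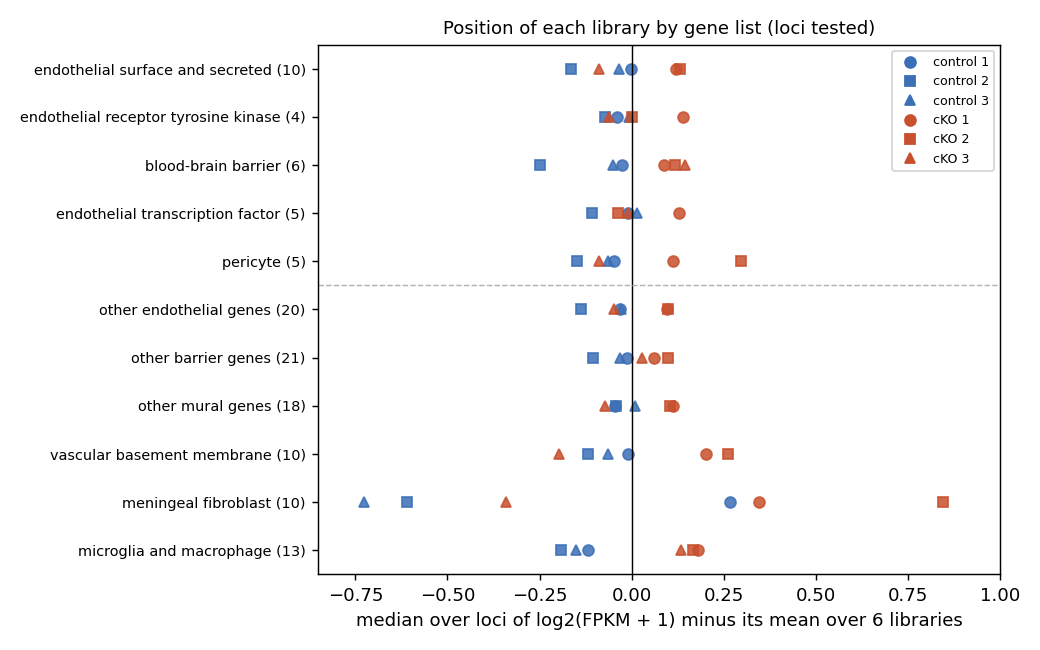
Each mark is a library. Its place on the x axis is the median, over the tested genes of a list, of log2(FPKM + 1) minus the mean over the 6 libraries, with the number of tested genes in brackets. Lists above the dashed line are vessel classes described here. Control 2 lies at -0.25 in the blood-brain barrier class, the cKO libraries lie at 0.088 to 0.15 in it, and cKO 3 falls among the controls in the pericyte class.

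The surface and secreted proteins of endothelium come first. All 10 had a log2 fold change above 0 (0.058 to 0.32, median 0.12), against 47% of all tested loci, and 0 of 10 were called. Pecam1, the adhesion protein CD31, was at 7.94, 6.99 and 8.08 FPKM in control libraries and 8.66, 8.67 and 6.84 FPKM in cKO. The cKO libraries thus held both the highest and the lowest value, and the log2 fold change was 0.058 (95% interval -0.18 to 0.30). Cdh5, the VE-cadherin of endothelial junctions, was at 5.84, 5.07 and 5.66 FPKM against 6.66, 7.23 and 5.48 FPKM (log2 fold change 0.19, interval -0.056 to 0.43), with cKO 3 among the controls. In Emcn, a sialomucin of capillary and venous endothelium, control 2 was likewise lowest and cKO 2 highest.

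Emcn stood at 2.90, 2.42 and 2.74 FPKM in control libraries and 3.57, 4.42 and 2.87 FPKM in cKO. Its log2 fold change was 0.32 (SE 0.13), with a limma p of 0.0464 and a limma adjusted p of 0.277. Esam, an adhesion molecule of tight junctions, had groups that did not overlap. It was at 10.1, 9.42 and 9.89 FPKM in control libraries and 10.8, 11.2 and 10.5 FPKM in cKO, a ratio of means of 1.11. Its log2 fold change was 0.14 (SE 0.055, limma adjusted p = 0.268). Ly6c1, a GPI-anchored protein of brain endothelium that some blood monocytes share, also had groups apart, at 5.19, 3.10 and 4.74 against 5.24, 5.35 and 5.66 FPKM (adjusted p = 0.385 by limma). Of all tested loci 10.3% had every cKO library above every control library.

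The remaining 5 surface and secreted genes overlapped between the groups. Egfl7, a secreted protein of the vessel matrix, was at 12.2 ± 0.933 FPKM in control libraries and 13.3 ± 1.83 FPKM in cKO (SD, n = 3 each). Eng, the TGF-beta co-receptor endoglin, stood at 9.40 ± 1.63 and 10.3 ± 2.19 FPKM. Ramp2, which pairs with the adrenomedullin receptor, stood at 20.6 ± 3.27 and 21.5 ± 0.433 FPKM. For Vwf, the von Willebrand clotting factor, the means were 4.76 ± 0.396 and 5.18 ± 1.09 FPKM, and for Robo4, an endothelial guidance receptor, 2.73 ± 0.413 and 3.21 ± 0.494 FPKM. Exons of Egfl7, Eng and Ramp2 overlap those of other genes in GENCODE (Agpat2, Fpgs and Vps25 among them), as do those of 8 of the 34 genes, and for the strand setting of the counting nothing is given in the sources used here.

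The 4 receptor tyrosine kinases had the smallest median difference of the classes, 0.048, and 0 of 4 were called. Kdr, the main VEGF receptor, was at 9.57, 9.71 and 10.4 FPKM in control libraries and 11.6, 9.60 and 8.52 FPKM in cKO, so the cKO values lay on both sides of the controls. The difference was -0.0072 (95% interval -0.26 to 0.24), with a sign that was positive under all 3 other scalings. Flt1, the VEGF receptor that also acts as a decoy, was at 4.54 ± 0.124 and 4.62 ± 0.507 FPKM (interval of the difference -0.17 to 0.21). Of the angiopoietin pair, Tek, the receptor Tie2, was at 2.42 ± 0.208 and 2.61 ± 0.0266 FPKM, and Tie1, its partner, at 4.49 ± 0.138 and 5.26 ± 0.614 FPKM. Tie1 had the largest difference of the 4 (0.19, interval -0.017 to 0.39, limma adjusted p = 0.320).

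The endothelial transcription factors showed as little. Their median difference was 0.059 over 5 tested, 0 of 5 were called, and none had a limma p under 0.05 before adjustment (0 of 5). Sox17, an arterial SoxF factor, was at 1.39, 0.855 and 1.59 FPKM in control libraries and 2.03, 1.27 and 1.43 FPKM in cKO. Its relative Sox18 was at 4.90, 3.50 and 5.23 against 4.99, 4.46 and 4.04 FPKM, with overlapping groups in both. The ETS factors Erg, Fli1 and Ets1 drive many endothelial promoters, and Fli1 and Ets1 are also active in blood cells. Erg was at 1.403 ± 0.149 and 1.39 ± 0.0118 FPKM, Fli1 at 1.13 ± 0.0849 and 1.26 ± 0.328 FPKM, and Ets1 at 4.53 ± 0.120 and 4.77 ± 0.273 FPKM. The 95% interval for Ets1 was -0.093 to 0.21 and that for Erg -0.19 to 0.18. Signs of Sox18 and Erg changed with scaling.

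**Figure D3:**
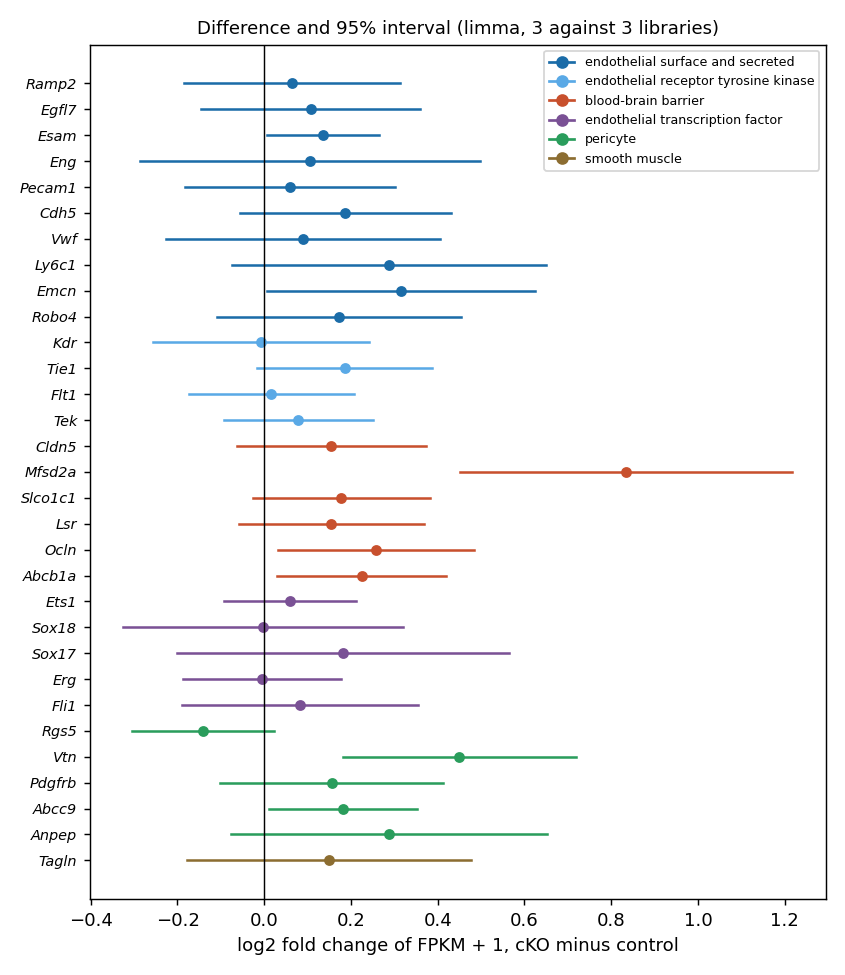
Log2 fold change of FPKM + 1 (cKO minus control) of the 31 tested vessel genes with its 95% interval from limma, not adjusted for the number of genes. Colours are the classes. Mfsd2a lies farthest from 0 at 0.83, Vtn follows at 0.45, and Rgs5 is lowest at -0.14.

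Blood-brain barrier genes held the largest difference. All 6 were above 0 (0.15 to 0.83, median 0.20), against 47% of all tested loci. In 3 of 6 every cKO library was above every control (Mfsd2a, Ocln and Abcb1a), against 10.3% of all tested loci. Control 2 was the lowest library in all 3. Mfsd2a (GRCm38 chromosome 4, 122946850 to 122961188, minus strand) encodes the lysophosphatidylcholine carrier that brings docosahexaenoic acid into the brain and that keeps vesicle traffic low in barrier endothelium. It was at 14.6, 12.2 and 19.6 FPKM in control 1, 2 and 3 and at 24.9, 29.3 and 29.5 FPKM in cKO 1, 2 and 3. Every cKO library was above every control, and the ratio of means was 1.81. The log2 fold change was 0.83 (SE 0.16, 95% interval 0.45 to 1.22), with a limma adjusted p of 0.0788, which missed the threshold. By exact permutation of the 6 libraries the two-sided p was 0.1, the lowest attainable with 3 against 3.

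The call on Mfsd2a turned on which loci and libraries were fitted. Its adjusted p by limma was 0.0279 with small-RNA loci left out. It was 0.0337 with those loci left out and the processing set, a grouping inferred from low values, as a term. With that term and all loci kept, 0 of the 31 members were called. With all loci kept and control 3 left out the adjusted p of Mfsd2a by limma was 0.0367. The other 5 libraries left out in turn gave 0.133 to 0.232. With small-RNA loci left out as well, the call held without control 3 and was lost without any 1 of the other 5 (adjusted p 0.0511 to 0.0948). The log2 fold change stayed between 0.69 and 1.01 over all 28 alternatives.

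Its barrier neighbours give a measure within each library. The ratio of Mfsd2a to Cldn5 was 0.456, 0.456 and 0.583 in the controls and 0.730, 0.902 and 0.819 in cKO. Its ratio to Slco1c1, the thyroxine and organic anion carrier of the barrier, was 1.68, 1.48 and 1.90 against 2.40, 2.97 and 2.75. Against Pecam1 it was 1.84, 1.74 and 2.42 in the controls and 2.88, 3.38 and 4.31 in cKO. In each of the 3 ratios every cKO library lay above every control (exact permutation p = 0.1 each, two-sided, 0.129 after adjustment over 9 ratios). The 3 ratios share Mfsd2a, whose own groups were already apart, so they are not separate evidence. They were chosen after the values were seen.

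**Figure D4:**
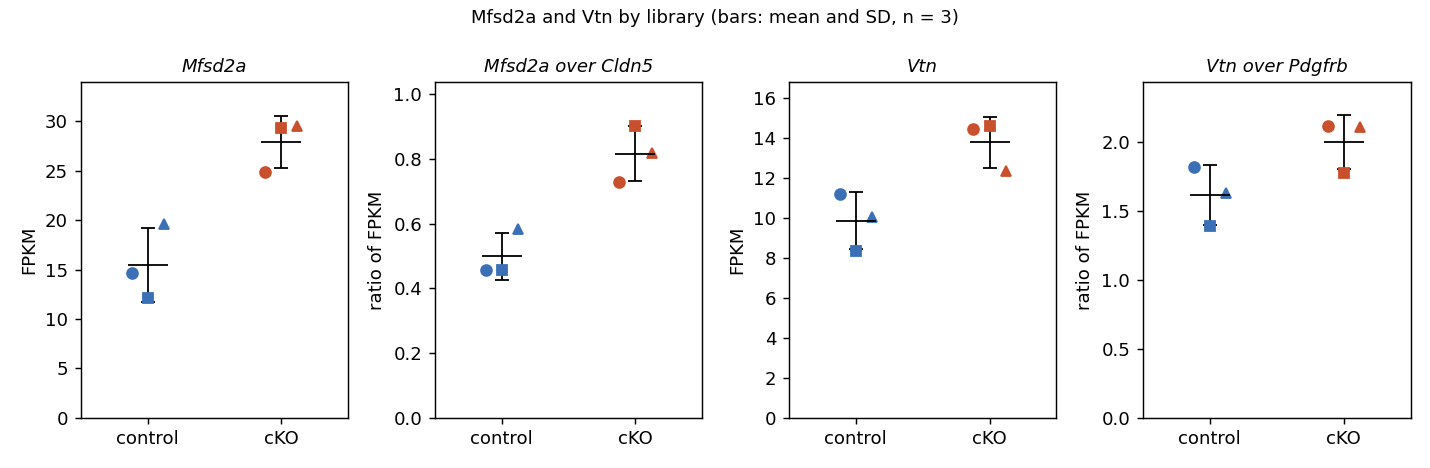
FPKM of Mfsd2a and Vtn and their ratios to Cldn5 and Pdgfrb in each library (circle, square and triangle are libraries 1, 2 and 3), with black bars for mean and SD, n = 3. Control and cKO libraries do not overlap in the first 3 panels and overlap in the ratio of Vtn to Pdgfrb, where cKO 2 lies at 1.78 beside 1.82 for control 1.

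The other barrier genes differed by less. Cldn5 was at 32.1, 26.6 and 33.5 FPKM in control libraries and 34.1, 32.5 and 36.0 FPKM in cKO (log2 fold change 0.15, 95% interval -0.063 to 0.37). Slco1c1 was at 8.69, 8.22 and 10.3 against 10.4, 9.88 and 10.8 FPKM (0.18, interval -0.026 to 0.38). In both, control 2 was the lowest library and the groups overlapped. Abcb1a, a drug efflux pump whose near copy Abcb1b may share reads, was low, at 1.51, 1.21 and 1.46 FPKM in control libraries and 1.73, 1.92 and 1.73 FPKM in cKO. Its groups were apart, with a limma p of 0.0295 before and 0.235 after adjustment.

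Ocln and Lsr are tight junction genes that epithelia also express. Ocln, occludin, sits where 2 cells meet and was at 2.49, 1.86 and 2.34 FPKM in control libraries and 2.83, 2.67 and 3.05 FPKM in cKO, without overlap (log2 fold change 0.26, SE 0.095, limma adjusted p = 0.240). Lsr, angulin-1, sits where 3 cells meet and was at 4.52, 3.89 and 4.47 against 4.89, 5.42 and 4.39 FPKM, with overlap (0.15, adjusted p = 0.422 by limma). Beside them, 13 other epithelial genes known to be repressed by Zeb factors were mostly under 1 FPKM. Of the 13, 2 were tested, Cldn3 and Crb3, and neither was called. Below the filter, Krt8, a keratin, was at 0.156, 0.211 and 0.166 FPKM against 1.27, 0.324 and 0.961 FPKM, and St14, a membrane protease, at 0.433, 0.539 and 0.635 against 0.943, 0.817 and 0.746 FPKM. Krt18, Cdh1 and Esrp2 likewise had every cKO library above every control, at 0.337, 0.1004 and 0.0159 FPKM on average in cKO. Esrp2 was listed at 0 in all controls. Without a filter limma called none of these 5 (adjusted p 0.201 to 0.587), which were named after their values were seen. Groups overlapped in Epcam, Esrp1, Cldn4, Cldn7, Ovol1 and Grhl2, and Grhl2 was lower on average (0.127 and 0.106 FPKM). How often loci under the filter fall in either order was not counted. Crb3, a polarity protein, was at 2.35 ± 0.199 and 2.92 ± 0.305 FPKM (limma adjusted p = 0.257).

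Promoter letters are given for the 2 members with the largest differences and for the tight junction genes, because Zeb proteins bind the E-box CACCTG. The RefSeq table (GRCm38.p6) held windows of 300 bases, from 250 before to 50 after a start, for 22 of the 34 genes. The letters CACCTG, on either strand, occurred in 7 of their 28 windows, of the genes Egfl7, Erg, Lsr, Mfsd2a, Ocln and Vtn, and in 20.21% of all 32851 windows. Each sequence below runs 5′ to 3′ along the gene, and capitals mark CACCTG or its reverse complement CAGGTG.
Mfsd2a: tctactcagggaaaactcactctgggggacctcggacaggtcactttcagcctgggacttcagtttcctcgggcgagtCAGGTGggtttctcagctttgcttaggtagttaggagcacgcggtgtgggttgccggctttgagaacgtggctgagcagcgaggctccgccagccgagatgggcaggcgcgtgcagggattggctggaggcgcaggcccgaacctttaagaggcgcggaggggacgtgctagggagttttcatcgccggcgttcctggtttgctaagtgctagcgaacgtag
Vtn: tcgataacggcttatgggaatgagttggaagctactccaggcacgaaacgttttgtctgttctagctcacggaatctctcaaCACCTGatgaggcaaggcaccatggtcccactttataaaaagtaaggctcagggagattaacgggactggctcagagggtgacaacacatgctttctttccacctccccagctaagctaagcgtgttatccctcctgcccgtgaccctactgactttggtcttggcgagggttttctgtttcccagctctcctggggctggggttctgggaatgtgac
Lsr: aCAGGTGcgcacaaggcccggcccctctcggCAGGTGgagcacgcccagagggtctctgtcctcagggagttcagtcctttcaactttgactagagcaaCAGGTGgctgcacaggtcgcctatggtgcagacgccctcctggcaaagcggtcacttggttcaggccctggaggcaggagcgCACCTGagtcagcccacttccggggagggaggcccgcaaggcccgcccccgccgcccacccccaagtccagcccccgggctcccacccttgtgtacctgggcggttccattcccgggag
Ocln: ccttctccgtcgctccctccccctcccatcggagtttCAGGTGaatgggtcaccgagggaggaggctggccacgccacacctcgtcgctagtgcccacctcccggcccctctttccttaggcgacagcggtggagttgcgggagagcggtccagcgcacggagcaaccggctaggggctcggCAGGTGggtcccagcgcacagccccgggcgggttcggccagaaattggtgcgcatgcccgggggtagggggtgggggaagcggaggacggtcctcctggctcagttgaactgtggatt
Cldn5: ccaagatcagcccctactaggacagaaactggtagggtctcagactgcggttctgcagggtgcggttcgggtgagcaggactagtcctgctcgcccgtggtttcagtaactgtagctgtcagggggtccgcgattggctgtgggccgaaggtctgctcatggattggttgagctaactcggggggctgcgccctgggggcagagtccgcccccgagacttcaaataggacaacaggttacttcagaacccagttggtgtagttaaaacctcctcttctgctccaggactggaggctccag

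The windows are chr4:122961139-122961438 (minus strand) for Mfsd2a, chr11:78498870-78499169 (plus) for Vtn, chr7:30973420-30973719 (minus) for Lsr, chr13:100552449-100552748 (minus) for Ocln and chr16:18776597-18776896 (plus) for Cldn5. Mfsd2a held 1 match, with its first base at -172 from the start, and Vtn 1, at -168. Lsr held 4, the nearest at -69 and -151, and at least 4 were found in 18 of the 32851 windows (0.0548%). Ocln had 2 overlapping windows. In the one printed 2 matches were found, at -213 and -68, and 2.88% of all windows held at least 2. The window not printed held 1 match, at 8 from its start, which is the same site as the one at -213. The Cldn5 window held 0. Any link between the matches and the differences in level was not tested. The ETS letters CCGGAA, which do not overlap CACCTG, were in 3 of the 28 windows (Kdr, Lsr and Ocln) and in 14.9% of all windows. A match is a description of these letters and not a bound site.

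Pericyte genes split. Of the 5, 4 were above 0 and 1 below, with a median of 0.18, and 0 of 5 were called. Vtn, vitronectin (GRCm38 chromosome 11, 78499091 to 78502324, plus strand), is a secreted matrix protein that brain pericytes make. It was at 11.2, 8.34 and 10.05 FPKM in control libraries and 14.5, 14.6 and 12.3 FPKM in cKO. All cKO libraries were above all controls, the ratio of means was 1.398 and the log2 fold change 0.45 (SE 0.11, limma adjusted p = 0.126, or 0.0665 with small-RNA loci left out).

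Rgs5, a regulator of G protein signalling and a classical pericyte marker (GRCm38 chromosome 1, 169655501 to 169695813), went the other way. It was at 14.9, 14.3 and 14.6 FPKM in control 1, 2 and 3 and at 14.1, 13.4 and 11.9 FPKM in cKO 1, 2 and 3. Every cKO library lay under every control, as in 13.6% of all tested loci, and Rgs5 was the only 1 of the 31 with that order. Its log2 fold change was -0.14 (SE 0.069, 95% interval -0.30 to 0.023, limma adjusted p = 0.350). Pdgfrb, the PDGF receptor of mural cells, was at 6.15, 5.98 and 6.16 FPKM in control libraries and 6.83, 8.20 and 5.84 FPKM in cKO, so that cKO 3 was the lowest and cKO 2 the highest of all.

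Abcc9, a subunit of the pericyte potassium channel, was at 4.15, 3.84 and 4.14 against 5.002, 4.85 and 4.33 FPKM, without overlap (log2 fold change 0.18, limma adjusted p = 0.264). Anpep, the aminopeptidase CD13, was near the filter at 1.09, 0.702 and 0.659 FPKM in control libraries and 1.16, 1.65 and 0.874 FPKM in cKO. It reached 1 FPKM in control 1, cKO 1 and cKO 2, the libraries that were also high in meningeal fibroblast genes, a cell type that expresses it too. Within libraries, Rgs5 over Pdgfrb was 2.42, 2.39 and 2.37 in the controls and 2.06, 1.63 and 2.04 in cKO. Vtn over Rgs5 was 0.754, 0.584 and 0.690 against 1.03, 1.09 and 1.03. The groups were apart in both ratios (exact permutation p = 0.1 each, 0.129 after adjustment over 9). For Vtn over Rgs5 this order was fixed beforehand, since every cKO library was above every control in Vtn and under it in Rgs5. That ratio therefore adds nothing to the values of the 2 genes. All 9 ratios were chosen after the values were seen. Vtn over Pdgfrb overlapped, at 1.62 ± 0.214 and 2.00 ± 0.193 (SD, n = 3, exact permutation p = 0.2). The 2 ratios of a mural to an endothelial gene went opposite ways. Pdgfrb over Pecam1 was 0.797 ± 0.0508 and 0.863 ± 0.0789, with overlap (SD, n = 3, exact permutation p = 0.3). Rgs5 over Pecam1 was 1.87, 2.04 and 1.80 against 1.63, 1.55 and 1.74, with every cKO library under every control (exact permutation p = 0.1, or 0.129 adjusted).

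Smooth muscle genes were near the floor of the measurement. Tagln, transgelin, was the 1 of 4 that was tested, at 1.22, 1.78 and 1.51 FPKM in control libraries and 1.32, 2.04 and 2.01 FPKM in cKO (log2 fold change 0.15, 95% interval -0.18 to 0.48). Acta2, smooth muscle actin, was at 0.425, 0.498 and 0.266 against 0.304, 0.564 and 0.400 FPKM. Myh11, smooth muscle myosin, was at 0.135, 0.137 and 0.140 against 0.0728, 0.238 and 0.101 FPKM, and Cnn1, calponin, at 0.0532 to 0.149 FPKM over the 6 libraries. The groups overlapped in all 4, cKO 2 was the highest library for Acta2, Tagln and Myh11, and without a filter none of the other 3 was called.

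Further lists of vessel wall genes were read beside the 34. Of 20 tested endothelial genes outside the 34, 14 were above 0 (median 0.097) and 0 were called. The 3 with the smallest p were Rasip1, an endothelial Ras-interacting protein (8.77 ± 0.364 to 10.6 ± 0.632 FPKM), Arhgef15 and Podxl, with log2 fold changes of 0.25, 0.15 and 0.32 and limma adjusted p of 0.128, 0.279 and 0.228. Of 21 further barrier genes, 15 were above 0 (median 0.10) and 0 were called. Slc7a5, the large neutral amino acid carrier, was at 63.9 ± 1.90 FPKM and 77.6 ± 1.98 FPKM (SD, n = 3 each), without overlap (adjusted p = 0.0722, or 0.0352 with small-RNA loci left out, by limma). Spock2 had a log2 fold change of 0.24 and was not called. Over the 6 libraries Slc7a5 (70.7 FPKM) and Spock2 (108 FPKM) stood above Cldn5 (32.5 FPKM). Which cells their RNA came from was not measured.

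Of 18 further mural genes, 13 were above 0 (median 0.11) and 0 were called. Cox4i2, a respiratory chain subunit of pericytes, was at 2.21, 2.97 and 2.60 FPKM in control libraries and 4.45, 4.89 and 3.76 FPKM in cKO, a ratio of 1.68. Its limma adjusted p was 0.0792, or 0.0361 with small-RNA loci left out. Atp13a5, another brain pericyte gene, had a log2 fold change of 0.19, and Cald1, the actin-binding caldesmon, which many cells make, one of -0.22 (limma adjusted p = 0.286 and 0.102). Of 10 basement membrane genes, 6 were above 0 and 4 below, and 0 were called. Lamc1, a laminin chain, was at 12.5 ± 0.179 and 17.0 ± 2.33 FPKM, Sparc, a matrix protein, at 132 ± 8.62 and 106 ± 6.97 FPKM, and Nid1 at 84.6 ± 3.01 and 76.0 ± 7.66 FPKM.

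Signals to the vessel did not share a direction. Of 24 growth factor and Notch pathway genes, 12 were above 0 and 12 below (median 0.016) and 0 were called. In the fit free of small-RNA loci 2 of them fell, Angpt1 and Hey1. Angpt1, the ligand that activates Tek, was at 5.76, 5.95 and 6.09 FPKM in control libraries and 4.47, 4.34 and 3.99 FPKM in cKO, a ratio of 0.72 (log2 fold change -0.40, SE 0.064). Its limma adjusted p was 0.0644, or 0.0319 with small-RNA loci left out. Tek itself overlapped between the groups. Hey1, a Notch effector that neural progenitors also express, was at 34.7, 30.0 and 32.2 FPKM against 22.9, 24.9 and 26.7 FPKM (adjusted p = 0.0905, or 0.0448 without those loci, by limma). Nrp2, a VEGF and semaphorin co-receptor, had a log2 fold change of 0.36 (limma adjusted p = 0.146).

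Of 13 Wnt pathway genes of the barrier, 9 were above 0 (median 0.069) and 0 were called. Wnt7a, a ligand of barrier formation, was at 1.91, 1.60 and 2.22 FPKM in control libraries and 3.27, 2.53 and 2.39 FPKM in cKO (log2 fold change 0.36, limma adjusted p = 0.212). Adgra2, its endothelial co-receptor, had a difference of 0.24, and Ndp, an X-linked Frizzled ligand, one of -0.20. Of 10 tested glial endfoot genes, 3 were above 0 and 7 below (median -0.094), and 0 were called. Their list of 11 genes summed to 502, 446 and 432 FPKM in control 1, 2 and 3 and to 412, 272 and 373 FPKM in cKO 1, 2 and 3, lower without overlap. The largest part of that sum in each library was Slc1a3, the glutamate carrier of radial glia and astrocytes. It was at 302, 260 and 244 against 206, 92.9 and 182 FPKM (limma adjusted p = 0.221). The 6 libraries ranked the same in the sum as in Slc1a3 alone, so the sum does not stand for the whole list. Of the 10 tested endfoot genes, 3 were lower without overlap and 1 was higher without overlap. Dtna, a dystrobrevin, was also lower without overlap (ratio 0.856, limma adjusted p = 0.180). Aqp4, the water channel that faces the vessel, was at 16.7, 12.6 and 10.8 FPKM in control libraries and 5.89, 6.02 and 8.10 FPKM in cKO. Gja1, connexin 43, was at 28.6, 24.0 and 30.6 against 41.4, 38.0 and 40.6 FPKM. Neither was called over all loci (limma adjusted p = 0.0788 and 0.0723), and with small-RNA loci left out Aqp4 fell (0.0279) and Gja1 rose (0.0263). The calls on these 7 genes made with small-RNA loci left out were each lost in at least 4 of the 6 fits that also left out 1 library (5 of 6 for Mfsd2a, Cox4i2 and Hey1, 6 of 6 for Slc7a5 and Angpt1, 4 of 6 for Aqp4 and Gja1).

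Library sums lay between 497542 and 524474 FPKM. Read numbers are unknown from the labels and files, which limits the precision of values under 1 FPKM. Low values, under 0.1 FPKM, shared a step pattern in 7 of the 15 pairs of libraries. This split the libraries into 2 sets, called processing sets here. They are inferred from the values alone, no label names them, and what they stand for is unknown. The smaller set held control 1 and cKO 3, and the larger the remaining 4, so both genotypes are in each. Within the larger set the median log2 fold change of the 31 genes was 0.18, that of Mfsd2a was 0.77 and that of Vtn 0.61.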

How the data were processed

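Whole cerebellum RNA from 3 control and 3 cKO libraries was compared; groups and replicate numbers come from the titles. The title and table column of cKO 1 carry the number 1 but its description the number 3, so which library is cKO 1 and which cKO 3 rests on the titles, and with it every statement on these libraries, the deposit and the replicate block. Per the labels' protocols, RNA was extracted with Trizol and libraries made with the Illumina TruSeq kit. The submitters' processing notes name CASAVA, TopHat, Cufflinks and build mm10 as what the authors used. The deposited values were read as FPKM from the Cufflinks locus names and the values, since no label names the unit. Not given in the sources used here were versions, annotation, strand setting and the scaling across libraries.

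Values were taken as log2(FPKM + 1), a locus was kept when 3 or more of the 6 libraries reached 1 FPKM, and limma 3.58.1 (R 4.3.3, trend, two-sided) was fitted to all of them with Benjamini-Hochberg adjustment and a threshold of 0.05. Intervals are 95% limma intervals. Exact tests permuted the 6 libraries. The script was tested on simulated data. Gene positions are those of GENCODE M21 (GRCm38), and promoters those of RefSeq. Figures used matplotlib 3.10.9.

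The 34 members and all lists were chosen with earlier results of these data known. Named genes are all members, Zeb2, sex-linked genes as a check, and in each vessel list the called loci and the 3 with the smallest p, of which 1 is not reported here. The other cell-type lists are given by sums and counts, with the loci called in them and the meningeal markers Col1a1, Col1a2, Col3a1, Dcn and Lum. Aqp4 and Gja1 were the endfoot genes called with small-RNA loci left out. Slc1a3, Dtna, the 2 Hba-a1 loci, Pdgfra, Islr, Ptgds, Foxc1, Otx2 and Enpp2 were named after their values were seen. Fabp7, Zic1, Zic2, Gli1, Atoh1 and Pax6 mark the tissue. Alternatives were the replicate block, the deposit (a first one of controls 1 and 2 with cKO 1 and 2, whose labels carry a description, and a second of control 3 and cKO 3), the processing set, libraries left out, pseudocounts, filters, scalings, variance estimates, small-RNA loci left out and a threshold of 0.1. Fits that combined small-RNA loci left out with the processing set or a left-out library were chosen after seeing the data.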

Additional observations from a re-analysis of the deposited data

How the results depend on the processing

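Of the 31 tested genes, 23 kept the sign of their log2 fold change under every alternative run, and 30 were called under none. The exception was Mfsd2a, the 1 member called without control 3, with small-RNA loci left out, with those left out and the processing set as a term, and at a threshold of 0.1. The number of loci called over the table was 78. It was 15 with the replicate block, 22 with the deposit as a term, 30 in the larger processing set, 21 to 55 with 1 library left out, 28 without a filter, 30 at a mean of at least 5 FPKM, 336 with robust variance, 330 with small-RNA loci left out, 524 with the processing set as a further term, 31 to 306 (240 without control 3, 50 without cKO 1) with 1 library left out as well, and 409 at a threshold of 0.1. The replicate numbers did not pair the libraries (deviations of same-numbered libraries correlated at -0.027, 0.037 and 0.049), and with the replicate block 0 of the 31 members were called. In the first deposit alone the median log2 fold change was 0.24 over the 31, 0.27 for surface and secreted genes and 0.15 for transcription factors. With 1 library left out, these medians ranged over 0.099 to 0.22, 0.082 to 0.23 and -0.0052 to 0.093. Signs changed for Kdr (0.12 in the first deposit, 0.064 in the larger set, 0.0052 with median of ratios, 0.0041 with upper quartile scaling and 0.011 with quantile normalization), for Sox18 (0.15, 0.11, 0.0091, 0.0080 and 0.020 in the same order, and 0.00019 at a pseudocount of 0.1), for Erg (0.0035 in the first deposit, 0.0022 and 0.0015 with the first 2 scalings) and for Flt1 (-0.0069 with sample weights). With 1 library left out, the log2 fold change ranged over -0.12 to 0.086 for Kdr, -0.14 to 0.089 for Sox18, -0.053 to 0.036 for Erg, -0.057 to 0.057 for Flt1, -0.036 to 0.25 for Eng, -0.040 to 0.22 for Vwf, -0.032 to 0.18 for Ramp2 and -0.034 to 0.15 for Fli1. The cause of these differences was not tested.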
